A study of Drosophila melanogaster with 12 samples.

Results

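Long noncoding RNAs are transcripts without a known protein product. The set described here holds 50 Drosophila melanogaster genes of this class, of 18757 genes or target sequences tested. A gene belonged to it if its current FlyBase symbol carries the prefix lncRNA: and an array probe was made to its noncoding RefSeq transcript or to a clone of it. The dosage compensation RNAs roX1 and roX2 were left out. For each gene the probe of highest mean was taken, and it had to be well above background, by the scanner software's mark, on all 3 arrays of at least 1 group. Of 102 long noncoding RNA genes with a probe, 50 met this. The prefix lncRNA: is left off below.

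Total RNA of whole larvae was hybridised to 12 one-colour Agilent arrays, 3 in each of 4 groups. The control genotype was w1118 and the other genotype was a REPTOR knockout, whose allele the labels do not describe further. Larvae of each genotype fed for 6 h on food with 200 µM rapamycin in ethanol or on food with the same amount of ethanol alone. All groups were growth controlled and synchronised. Larvae of every group are labelled as female and as 48 h from wandering, and the arrays of a group are described as biological replicates. Rapamycin inhibits the TORC1 kinase complex, which couples nutrients to growth, and REPTOR is a bZIP transcription factor that TORC1 holds in check. The design asks how far the response to rapamycin needs REPTOR.

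Long noncoding RNAs work in several ways. Some are the primary transcripts from which microRNAs are cut, and the microRNA, not the long RNA, then represses target mRNAs. Others bind proteins in the nucleus, as Hsromega does in the omega speckles, or pair with chromatin, as the roX RNAs do on the male X chromosome. A gene table of the Release 6 assembly placed a microRNA gene inside the span of 8 of the 50 genes and a small nucleolar RNA gene inside 0. A protein-coding gene overlapped 18 of them, so a probe there may also read a transcript of that gene. In RNA of whole larvae, fewer cells of a type and less RNA per cell cannot be told apart.

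A level is the log2 signal minus the 75th percentile of its array, and levels of different probes are not compared. Differences are log2 differences of group means, with 3 arrays a group. Their standard errors are from limma, which takes a single estimate of the spread per gene or target from all 12 arrays. A standard error therefore does not show the spread of only the groups compared. Adjusted p-values are from limma with Benjamini-Hochberg adjustment over all 18757 genes or targets, and a difference was called below 0.05. The share of spots well above background ran from 72.5% to 82.7% over the arrays, and 0 were saturated. Of the 50 genes, 41 were well above background on all 12 arrays.

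Arrays differed in ways the groups do not explain. On control rapamycin array 3 and knockout rapamycin arrays 1 and 2, roX2 stood at -1.29, 0.01 and -1.10. On knockout rapamycin array 3 it was well above background at -5.83, and on the other 8 arrays it was not, at -9.06 to -6.90. roX1 stood at 3.35, 3.88 and 2.91 on the same 3 arrays and between -1.57 and 0.43 on the rest. Both are expressed in male flies, so these 3 arrays go against the label female. roX1 was well above background on every array, and whether the other arrays also hold male RNA was not tested. The arrays also lay on 3 slides, each scanned at its own time. Slide 1 held control ethanol arrays 1 to 3 and control rapamycin array 1. Slide 2 held control rapamycin arrays 2 and 3 and knockout ethanol arrays 1 and 2, and slide 3 held the other 4. No slide held both genotypes on the same food. Counts are therefore given also without the 3 arrays with raised roX2 and with slide as a block, and the calls that these fits keep or lose are named. The first of these fits leaves 1 knockout rapamycin array, array 3, and 2 control rapamycin arrays. For a call lost in it, lower precision and a relation to roX2 cannot be told apart. REPTOR itself was not analysed here, so its level gave no check of the genotypes.

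Rapamycin raised 14 of the 50 long noncoding RNAs in control larvae and lowered 4, and 5 of the 18 changed at least 2-fold. Over all genes and targets 1589 of the 8079 called did so. The largest increases were those of CR43301, CR42862, CR43334, which carries the bantam microRNA, CR44133 and CR33938. The largest decrease was that of CR43650, which carries mir-8. Among all tested genes and targets 21.3% rose and 21.8% fell in this comparison, against 14 and 4 of 50 here, and the median difference was 0.28 over the 50 and 0.05 over all. In knockout larvae 7 of the 50 rose and 1 fell, where 6.35% of all rose and 8.92% fell, with medians of 0.15 and 0.01. The rapamycin effect was called in both genotypes for 6 genes, in control larvae for another 12 and in knockout larvae for another 2. The 6 were 33.3% of the control calls and 75% of the knockout calls, where over all genes and targets 27.5% and 77.6% were called in both.

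Without the 3 arrays with raised roX2, 18 genes passed in control larvae and 3 in knockout larvae, and of the 8 knockout calls those of CR42862 and CR9162 were kept. In a fit with slide as a block, 13 and 1 passed, the 1 being CR42862. Within slide 1 alone, with its single control rapamycin array, 4 passed, a fit chosen after the data had been seen. Within slide 3, fitted after the same choice, 0 of the 50 and 0 of all passed by limma, although 2528 of all had an unadjusted p under 0.05. The fit without the raised arrays holds 1 knockout rapamycin array, and the fit within slide 3 holds 1 knockout ethanol array. In each, the mean of a knockout group thus rests on a single array. In knockout larvae the count was 5 without knockout rapamycin array 1 and 15 without array 3. Scaling mattered too. When each array was centred on its median instead, the median difference of all genes and targets moved to -0.14 in control and -0.31 in knockout larvae, and 9 and 2 of the 50 passed. Of all that passed in control larvae, 49.3% had risen with the 75th percentile and 25.7% with the median. In knockout larvae these shares were 41.6% and 5.76%, and 30.6% with the authors' deposited values.

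**Figure D1:**
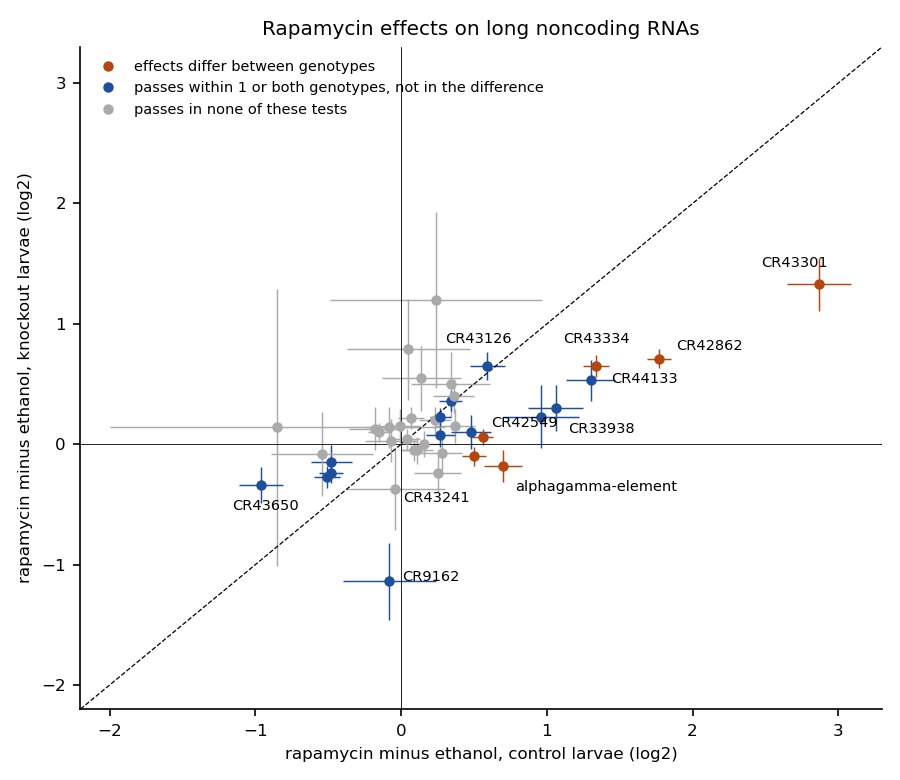
The rapamycin effect (log2 difference, rapamycin minus ethanol) in control larvae on the horizontal axis and in knockout larvae on the vertical axis, for the 41 long noncoding RNAs well above background on all 12 arrays. Points are model estimates, bars are standard errors and the dashed line marks equal effects. The 6 genes whose effects differed between genotypes all lie below the line, CR43301 farthest to the right at 2.87 and 1.33.

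The rapamycin effect differed between genotypes for 6 of the 50 genes, and in each it was lower in the knockout. Among all genes and targets the effect was higher in the knockout for 6.63% and lower for 7.99%. The median difference of effects was 0.05 over the 50 and 0.01 over all. The 6 were CR43301, CR42862, CR43334, alphagamma-element:CR32865, CR43241 and CR42549. All 6 stayed called when any single array was left out. Without the 3 arrays with raised roX2, 4 of the 50 passed, among them CR42862, CR43301 and CR43334. Under the slide block 2 passed, CR42862 and alphagamma-element:CR32865. With median centring 1 passed, CR43301, and the share higher among all that passed was 23.1%, against 45.3% with the 75th percentile.

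CR43301, whose nearest coding gene is drn, stood at -4.51, -4.59 and -4.55 on the control ethanol arrays and at -1.76, -1.60 and -1.69 on the control rapamycin arrays. It stood at -5.15, -4.87 and -4.86 on the knockout ethanol arrays and at -3.05, -3.70 and -4.13 on the knockout rapamycin arrays. Rapamycin arrays lay above ethanol arrays in both genotypes, with no overlap, and the knockout rapamycin arrays lay below every control rapamycin array. The increase was 2.87 ± 0.22 in control larvae (7.3-fold, adjusted p = 8.4e-06) and 1.33 ± 0.22 in knockout larvae (2.52-fold, adjusted p = 0.00497). The effects differed by -1.54 ± 0.31 (adjusted p = 0.0099). The knockout effect was 0.83 (adjusted p = 0.0531) without the arrays with raised roX2, and the difference was then -2.04 (adjusted p = 0.00414). The slide block gave a knockout effect of 1.24 (adjusted p = 0.125) and a difference of -1.55 (adjusted p = 0.138).

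CR42862 overlaps the coding gene CG33229 and was read by 5 probes. The probe used stood at 4.80, 4.66 and 4.86 in control larvae on ethanol and at 6.58, 6.56 and 6.49 on rapamycin. In knockout larvae it stood at 4.92, 5.08 and 5.04 on ethanol and at 5.61, 5.81 and 5.76 on rapamycin. The foods did not overlap in either genotype, and all knockout rapamycin arrays lay between the ethanol arrays and the control rapamycin arrays. The increase was 1.77 ± 0.08 in control larvae (3.41-fold, adjusted p = 5.06e-07) and 0.71 ± 0.08 in knockout larvae (1.64-fold, adjusted p = 0.000823), and the effects differed by -1.06 ± 0.11 (adjusted p = 0.000342). The other probes gave increases of 1.56 to 1.98 in control larvae and 0.76 to 0.90 in knockout larvae. With slide as a block the difference was -1.12 (adjusted p = 0.0187), and without the arrays with raised roX2 it was -1.05 (adjusted p = 0.013).

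CR43334 spans mir-ban, the gene of bantam, a microRNA that promotes growth and blocks apoptosis. It stood at -0.76, -0.61 and -0.60 on the control ethanol arrays and at 0.69, 0.76 and 0.60 on the control rapamycin arrays. It stood at -1.22, -1.22 and -1.11 on the knockout ethanol arrays and at -0.58, -0.36 and -0.66 on the knockout rapamycin arrays. The knockout was below the control on ethanol, and the knockout rapamycin arrays overlapped the control ethanol arrays. The increase was 1.34 ± 0.09 in control larvae (2.54-fold, adjusted p = 3.45e-06) and 0.65 ± 0.09 in knockout larvae (1.57-fold, adjusted p = 0.00194). The knockout call was lost without the arrays with raised roX2 (0.53, adjusted p = 0.072) and with slide as a block (0.58, adjusted p = 0.0865). The difference of effects was -0.69 ± 0.12 (adjusted p = 0.00531), and -0.77 (adjusted p = 0.077) with slide as a block. Knockout and control differed by -0.53 ± 0.09 on ethanol (adjusted p = 0.0163) and by -1.22 ± 0.09 on rapamycin (adjusted p = 9.81e-06), and the slide block left the first uncalled (-0.55, adjusted p = 0.601).

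The alphagamma element, alphagamma-element:CR32865, is a repeated transcription unit whose nearest coding gene is Hsp70Ba and which is known for its induction by heat. Its copies are near-identical, so its signal may stem from several of them. It stood at -4.12, -4.40 and -3.95 in control larvae on ethanol and at -3.48, -3.41 and -3.46 on rapamycin. In knockout larvae it stood at -4.55, -4.70 and -4.25 on ethanol and at -4.66, -4.69 and -4.70 on rapamycin. The control rapamycin arrays lay above all 9 others. The control effect was 0.70 ± 0.13 (1.63-fold, adjusted p = 0.00173), the knockout effect was -0.18 ± 0.13 (adjusted p = 0.357), and they differed by -0.88 ± 0.18 (adjusted p = 0.0114). With slide as a block the difference was -1.11 (adjusted p = 0.0439), and without the arrays with raised roX2 it was -0.91 (adjusted p = 0.118).

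CR43241 and CR42549 changed less. CR43241, which overlaps CG42748, stood at -0.48, -0.59 and -0.67 in control larvae on ethanol and at -0.07, -0.01 and -0.15 on rapamycin. In knockout larvae it stood at -0.55, -0.72 and -0.47 on ethanol and at -0.71, -0.71 and -0.62 on rapamycin. Here too the control rapamycin arrays lay above every other array. The control effect was 0.50 ± 0.08 (1.42-fold, adjusted p = 0.000727), the knockout effect was -0.10 ± 0.08 (adjusted p = 0.413) and the difference was -0.60 ± 0.11 (adjusted p = 0.00701).

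CR42549 overlaps the coding gene mura. It stood at -0.70, -0.90 and -0.90 in control larvae on ethanol and at -0.35, -0.22 and -0.24 on rapamycin, and at -0.55, -0.58 and -0.53 and at -0.56, -0.46 and -0.47 in knockout larvae on the same foods. The knockout arrays of both foods lay between the control groups. The control effect was 0.56 ± 0.07 (1.48-fold, adjusted p = 0.000179), the knockout effect was 0.06 ± 0.07 (adjusted p = 0.624) and the difference was -0.51 ± 0.10 (adjusted p = 0.00903). Without the arrays with raised roX2 the difference was -0.47 (adjusted p = 0.124) for CR42549 and -0.58 (adjusted p = 0.0927) for CR43241. Under the slide block these were -0.45 (adjusted p = 0.159) and -0.72 (adjusted p = 0.0617).

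**Figure D2:**
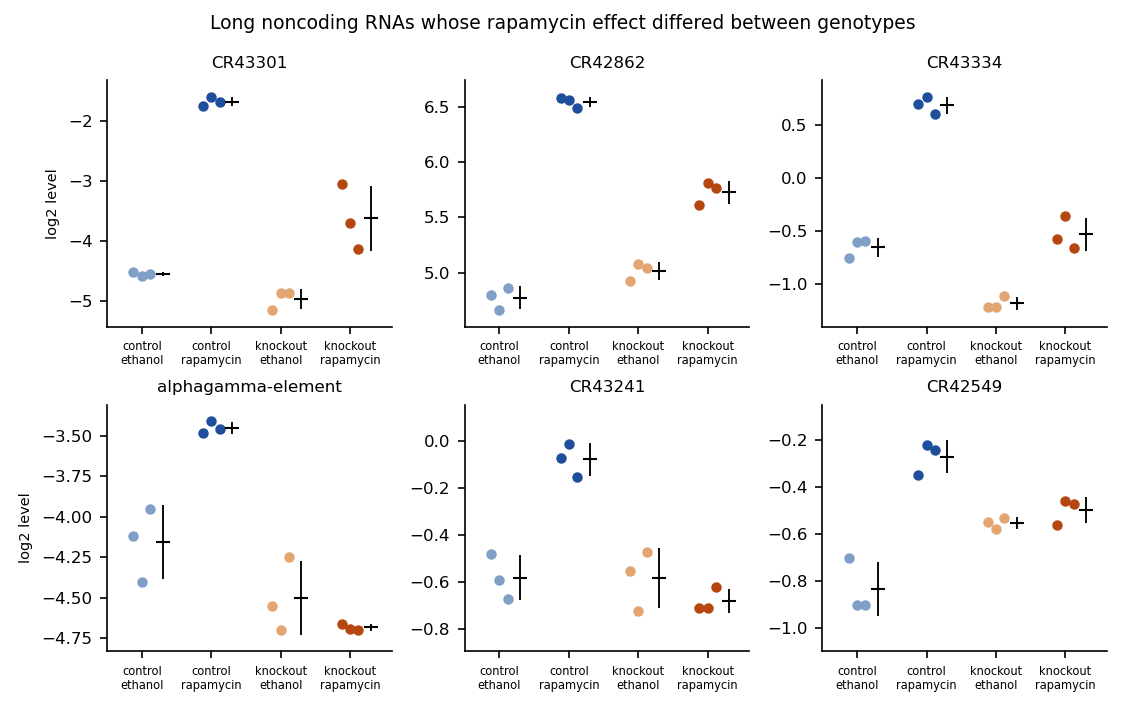
Levels (log2 signal relative to the array's 75th percentile) of the 6 long noncoding RNAs whose rapamycin effect differed between genotypes, 1 panel a gene. Each coloured point is an array, 3 a group, and the black mark with its bar is the mean with its SD. In every panel the control rapamycin group is the highest, for CR43301 near -1.68 against -3.63 in the knockout on rapamycin.

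Of the 8 genes that span a microRNA gene, 2 rose and 2 fell with rapamycin in control larvae and 4 were not called. Among all genes and targets 21.3% rose and 21.8% fell there. In knockout larvae only CR43334 was called among the hosts, where 6.35% of all rose and 8.92% fell. CR43650 spans mir-8, a microRNA known in flies for its role in larval growth and insulin signalling in the fat body. It stood at -1.70, -1.23 and -1.34 on the control ethanol arrays and at -2.41, -2.26 and -2.49 on the control rapamycin arrays. On the knockout arrays it stood at -1.70, -2.14 and -1.79 on ethanol and at -2.27, -2.07 and -2.31 on rapamycin. The control groups did not overlap and the knockout groups did. It fell by 0.96 on the log2 scale in control larvae (SE 0.15, adjusted p = 0.000624). Its knockout effect was -0.34 ± 0.15 (adjusted p = 0.145), and the difference of effects was 0.62 ± 0.21 (adjusted p = 0.0783).

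The other microRNA hosts moved less. CR43626, which spans mir-282, rose by 0.96 ± 0.26 in control larvae (1.95-fold, adjusted p = 0.0132), from -1.56 ± 0.42 to -0.59 ± 0.11 (mean ± SD). Its call was lost without control ethanol array 2 (0.82) and with slide as a block (0.84, adjusted p = 0.131). CR43314, which spans mir-bft, a microRNA gene that protects sensory organs from apoptosis, had -0.48 ± 0.14 in control larvae (adjusted p = 0.0189). That call was lost without control ethanol array 1 (-0.45) or 3 (-0.40), and the value was -0.28 (adjusted p = 0.343) with slide as a block.

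The remaining 4 hosts were not called for rapamycin in either genotype. CR43459, which spans mir-277 and mir-34, microRNA genes studied for branched-chain amino acid breakdown and ageing, had 0.28 ± 0.14 in control and -0.07 ± 0.14 in knockout larvae. CR43836, the span of mir-31b, had 0.25 ± 0.16 and -0.24 ± 0.16. It also overlaps the coding genes rdgA, CG10962, CG12662 and Nost, so its probe may read a transcript of these. CR31044, the span of mir-279 and mir-996, which shape the fly's CO2-sensing neurons, had 0.16 ± 0.11 and 0.00 ± 0.11.

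Hsromega, the heat-inducible RNA of omega speckles, spans mir-4951. It had -0.07 ± 0.18 (adjusted p = 0.779) and 0.03 ± 0.18 (adjusted p = 0.936). Of its 5 probes, 4 gave -0.07 to 0.12 in control larvae and 1 gave 0.48. Knockout ethanol array 2 stood at 3.98 where the other 11 arrays lay between 3.21 and 3.61. Between genotypes on rapamycin food, 14.9% of all genes and targets were lower in the knockout and 12.9% higher. Of the 50 genes 14 were lower and 1 was higher. Among the 8 hosts 3 were called, all lower, namely CR43334, CR43459 (-0.58 ± 0.14, adjusted p = 0.0121) and CR43836 (-0.53 ± 0.16, adjusted p = 0.0359). CR43836 lost that call with slide as a block (adjusted p = 0.29), as did CR43459 (adjusted p = 0.155).

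**Figure D3:**
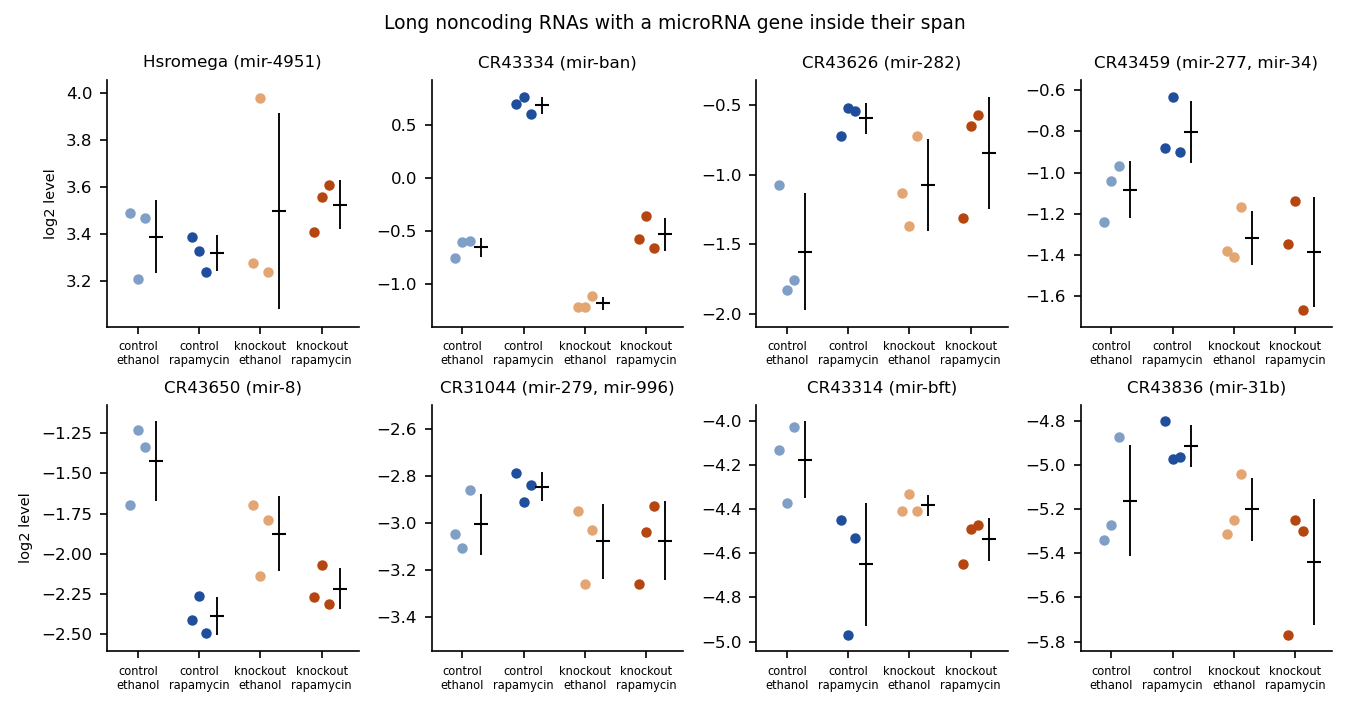
Levels (log2 signal relative to the array's 75th percentile) of the 8 long noncoding RNAs that span a microRNA gene, with that gene in brackets. Points are arrays, 3 a group, and black marks are means with SDs. CR43334 lay higher on rapamycin in both genotypes without overlap, CR43650 fell in control larvae from near -1.42 to near -2.39, and Hsromega lay between 3.21 and 3.98 on all arrays.

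Several other genes rose with rapamycin in control larvae without a called difference between genotypes. CR44133 overlaps srp, the gene of a GATA factor of fat body and blood cells. It stood at -2.18, -2.43 and -1.83 on the control ethanol arrays and at -0.84, -0.77 and -0.91 on the control rapamycin arrays. In knockout larvae it stood at -2.05, -1.53 and -1.83 on ethanol and at -1.41, -1.06 and -1.34 on rapamycin. Foods did not overlap in either genotype. The effect was 1.30 ± 0.17 in control larvae (2.47-fold, adjusted p = 0.000237) and 0.53 ± 0.17 in knockout larvae (adjusted p = 0.0635), and the difference was -0.77 ± 0.24 (adjusted p = 0.0613). CR42839, whose nearest coding gene is also srp, had -0.08 ± 0.17 and 0.14 ± 0.17.

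CR33938 lies nearest to Ccp84Ab, a gene of larval cuticle. It stood at 0.61, -0.10 and 0.07 on the control ethanol arrays and at 1.31, 1.12 and 1.34 on the control rapamycin arrays, and at 1.35, 1.28 and 1.58 and at 1.39, 1.79 and 1.92 in knockout larvae on the same foods. Control larvae on ethanol were below the other 3 groups without overlap. Rapamycin gave 1.06 ± 0.19 in control larvae (2.08-fold, adjusted p = 0.00167) and 0.30 ± 0.19 in knockout larvae (adjusted p = 0.31). On ethanol the knockout was higher by 1.21 ± 0.19 (2.31-fold, adjusted p = 0.0145), a call lost with slide as a block (1.2, adjusted p = 0.6), and the difference of effects was -0.76 ± 0.27 (adjusted p = 0.0955).

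The remaining increases were smaller, and 3 of these genes were called in both genotypes. CR43126, nearest to the forkhead gene fkh, had 0.59 ± 0.12 in control (adjusted p = 0.00351) and 0.65 ± 0.12 in knockout larvae (adjusted p = 0.00918). Its knockout effect was 0.53 (adjusted p = 0.219) without the arrays with raised roX2 and 0.50 (adjusted p = 0.205) under the slide block. CR43943 had 0.34 ± 0.08 and 0.36 ± 0.08, and mimi had 0.27 ± 0.07 and 0.23 ± 0.07. The knockout calls of both were lost without those arrays (0.41, adjusted p = 0.16, and 0.13, adjusted p = 0.516) and under the slide block (0.37, adjusted p = 0.12, and 0.28, adjusted p = 0.226), as was the control call of mimi under that block (0.28, adjusted p = 0.103). In the knockout, CR43943 turned to -0.12 with the authors' deposited values and mimi to -0.09 with median centring. In control larvae CR43242 rose by 0.48 ± 0.14 and CR42646 by 0.27 ± 0.10. CR42646 lost its call in 20 of 26 alternatives (0.03 to 0.47), and CR43242 in 9 of 26 (0.06 to 0.56), the fits without the arrays with raised roX2 and with the slide block among them for each. In knockout larvae CR32194 had 0.82 ± 0.20. It had passed the background filter only through the rapamycin groups, so its place among the genes that rose is a description. Its call was lost without knockout ethanol array 3 (0.87) or knockout rapamycin array 1 (0.85) or 2 (0.80), without the arrays with raised roX2 (0.82, adjusted p = 0.255) and with slide as a block (0.73, adjusted p = 0.261).

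The other decreases in control larvae were those of sphinx and CR44042. The RNA sphinx, which overlaps the coding gene fuss, is a chimeric transcript of recent origin linked to male courtship. It stood at 6.01, 6.09 and 6.12 on the control ethanol arrays and at 5.56, 5.65 and 5.56 on the control rapamycin arrays, with no overlap. In knockout larvae it stood at 5.99, 5.78 and 5.96 on ethanol and at 5.57, 5.76 and 5.68 on rapamycin. The effect was -0.48 ± 0.08 in control larvae (adjusted p = 0.000734) and -0.24 ± 0.08 in knockout larvae (adjusted p = 0.0598), with a difference of 0.24 ± 0.11 (adjusted p = 0.179).

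CR44042 stood at 0.23, 0.15 and 0.07 on the control ethanol arrays and at -0.42, -0.31 and -0.36 on the control rapamycin arrays. It stood at 0.59, 0.57 and 0.88 on the knockout ethanol arrays and at 0.39, 0.45 and 0.39 on the knockout rapamycin arrays. Every knockout array lay above every control array. Rapamycin gave -0.51 ± 0.09 in control larvae (adjusted p = 0.00119) and -0.27 ± 0.09 in knockout larvae (adjusted p = 0.0641). The knockout was higher by 0.53 ± 0.09 on ethanol (1.45-fold, adjusted p = 0.0163) and by 0.77 ± 0.09 on rapamycin (1.71-fold, adjusted p = 0.000183). With slide as a block these were 0.35 (adjusted p = 0.64) and 0.44 (adjusted p = 0.0993).

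Between genotypes on ethanol food, 3 of the 50 genes were higher and 3 lower in the knockout, where 2.91% of all genes and targets were higher and 3.42% lower. The medians were -0.07 and -0.01. Those higher were CR33938, CR44042 and CR42549 (0.28 ± 0.07, adjusted p = 0.047), and those lower were cherub, CR43334 and CR43943 (-0.31 ± 0.08, adjusted p = 0.0476). Under the slide block 0 of the 50 and 10 of all passed. Each of the 6 lost its call without at least 1 array. The count was 0 without control ethanol array 2 or 3, 3 without knockout ethanol array 2 and 2 without knockout ethanol array 3. It was 2 without the arrays with raised roX2, namely CR33938 and CR43334, 0 with median centring and 3 with quantile normalisation.

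On rapamycin food 1 of the 50 genes was higher in the knockout and 14 were lower. Of all genes and targets 12.9% were higher and 14.9% lower, and the medians were -0.03 and 0.01. In the fit with slide as a block 5 of the 50 passed, namely CR43301, CR42862, CR43334, alphagamma-element:CR32865 and CR43241. Without the arrays with raised roX2, 9 passed, and the calls of CR31781, CR42549, CR42836, CR43242, CR43836 and CR43943 were lost. With median centring 10 passed, the median of all moved to -0.16, and 19.5% of all that passed were higher, against 46.4% with the 75th percentile. The 14 held all 6 genes with a called difference of effects. The knockout differed from the control by -1.94 ± 0.22 for CR43301 (adjusted p = 0.000169), -1.23 ± 0.13 for alphagamma-element:CR32865 (adjusted p = 0.000111) and -0.81 ± 0.08 for CR42862 (adjusted p = 6.19e-05). CR43241 (-0.60 ± 0.08) and CR42549 (-0.22 ± 0.07) differed less.

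Beside CR43459 and CR43836, the lower genes included cherub, a long noncoding RNA of neuroblasts that is inherited unequally when they divide. It stood at 1.55, 2.05 and 1.99 on control ethanol, 2.19, 2.30 and 2.18 on control rapamycin, 1.25, 1.26 and 1.01 on knockout ethanol and 1.59, 1.75 and 1.38 on knockout rapamycin arrays. On each food the knockout arrays lay below the control arrays. The genotypes differed by -0.69 ± 0.14 on ethanol (adjusted p = 0.0288) and by -0.65 ± 0.14 on rapamycin (adjusted p = 0.0081). The slide block gave -0.66 (adjusted p = 0.709) and -0.42 (adjusted p = 0.514). Markers of the nervous system, fat body, salivary gland, blood cells, testis germline and female larvae, heat shock genes and partners of cherub each had 0 probes that could be named, so tissue makeup was not checked through them.

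CR9162, nearest to the hormone response gene Kr-h1, was read by 2 probes that disagreed. The probe used stood at -4.05, -3.88 and -4.01 on control ethanol, -4.10, -4.05 and -4.05 on control rapamycin, -4.20, -4.65 and -5.06 on knockout ethanol and -5.60, -5.16 and -6.57 on knockout rapamycin arrays. Every knockout array lay below every control array. It gave -1.71 ± 0.32 between genotypes on rapamycin (adjusted p = 0.00337) and -1.14 ± 0.32 for rapamycin in the knockout (adjusted p = 0.0402). The other probe, also well above background on all 12 arrays, gave 0.15 and 0.39. The rapamycin call in the knockout was lost in 15 of 26 alternatives (-1.94 to -0.38), among them 9 in which a single array was left out. With slide as a block the values were -1.09 (adjusted p = 0.417) and -0.72 (adjusted p = 0.427).

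CR42836, nearest to Gr92a, was well above background on the 3 control rapamycin arrays and on no knockout array. It had passed the background filter only through the control rapamycin group, so its place among the 14 lower genes is a description. It was at least 1.74-fold lower in the knockout on rapamycin, with measured means of -8.86 in the knockout and -6.45 in the control. This bound sets each dim array at the lower limit of signals well above background. CR31781 (-0.48 ± 0.14, adjusted p = 0.0276), CR43242 (-0.46 ± 0.14, adjusted p = 0.0307) and CR43943 (-0.29 ± 0.08, adjusted p = 0.021) were also lower. Each of these 3 lost its call when some single array was left out, as did CR42549 and CR43836.

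**Figure D4:**
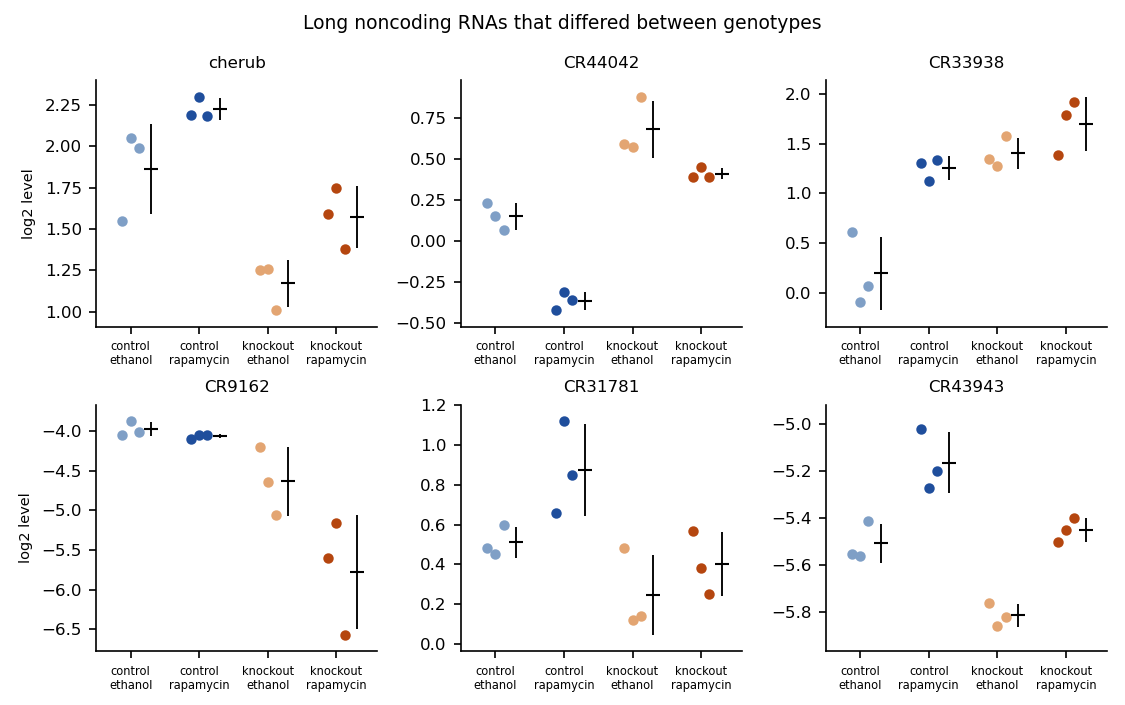
Levels (log2 signal relative to the array's 75th percentile) of 6 long noncoding RNAs called between genotypes on at least 1 food. Points are arrays, 3 a group, and black marks are means with SDs. Knockout arrays lie above control arrays on both foods for CR44042 and CR33938, and below them on both foods for cherub, CR9162 and CR43943.

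The level of 9 of the 50 genes followed the array's roX2 level within groups, all upwards. The slope is the log2 change of a gene per log2 unit of roX2 in a model that keeps the 4 group means, with roX2 set no lower than the lowest signal well above background. Because the arrays fell into clusters of roX2 level, no correlation over all arrays is given. Among all genes and targets 5.26% had a called positive slope and 0.139% a called negative slope, against 9 and 0 of 50, and both medians rounded to 0. Of the 50, 6 had passed the background filter only through the knockout rapamycin group, which holds 2 of the 3 arrays with raised roX2. Most of the 9 genes are among these, so the count of 9 is a description. Of the 41 genes well above background on all 12 arrays 3 were called (7.32%), where 3.31% of all genes and targets of that kind were. With median centring 10 of the 50 genes had a called positive slope and 18 a called negative one, and 9.14% of all calls were positive, against 97.4% with the 75th percentile.

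Among these 9 genes, 5 were well above background on at most 3 arrays outside those with raised roX2. These 5 had passed the background filter only through the knockout rapamycin group, where they are high. Their slopes are therefore a description, and no p is given for them. CR42767 stood at -0.48, 0.91 and -1.21 on the 3 arrays with raised roX2 and at -8.69 to -5.75 on the other 9, and its slope was 1.23 ± 0.13. CR32657, which overlaps Ten-a, stood at -1.39, -0.01 and -2.08 and at -9.30 to -6.45, with a slope of 1.22 ± 0.10. CR43835 stood at -0.60, 0.63 and -1.39 and at -9.05 to -5.58, with a slope of 1.14 ± 0.15. In all 3, as for roX2, knockout rapamycin array 1 was the highest.

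CR32661 stood at -1.43, -0.21 and -2.56 on the raised arrays and at -9.06 to -6.44 on the others, with a slope of 1.07 ± 0.11. CR43803, which overlaps beat-Ib, stood at -2.26, -1.12 and -3.0 and at -9.31 to -6.51, with a slope of 1.01 ± 0.10. Outside the raised arrays CR32657, CR32661 and CR43803 were well above background on 1 array, knockout rapamycin array 3, where roX2 was well above background too.

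The other 4 were well above background on more arrays. CR43306 stood at -3.48, -2.36 and -4.22 on the raised arrays and at -8.59 to -6.49 on the others, with a slope of 0.67 ± 0.07 (adjusted p = 0.000481). CR43264, which overlaps CG15765, was well above background on all arrays. It stood at 1.83, 2.61 and 1.25 on the raised arrays, at 0.15 to 1.09 on the knockout ethanol arrays, at -0.12 to 0.39 on the control ethanol arrays and at -1.89, -2.0 and -1.52 on the other 3 rapamycin arrays. Its slope was 0.67 ± 0.05 (adjusted p = 5.4e-05), and within both rapamycin groups the raised arrays were higher by 3.77 and 3.45. CR42859, which overlaps CG4267, had a slope of 0.39 ± 0.06 (adjusted p = 0.00532). Its call was lost without knockout rapamycin array 3 (0.31). CR32218, which overlaps Mi-2 and Su(Tpl), had 0.15 ± 0.02 (adjusted p = 0.00161).

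**Figure D5:**
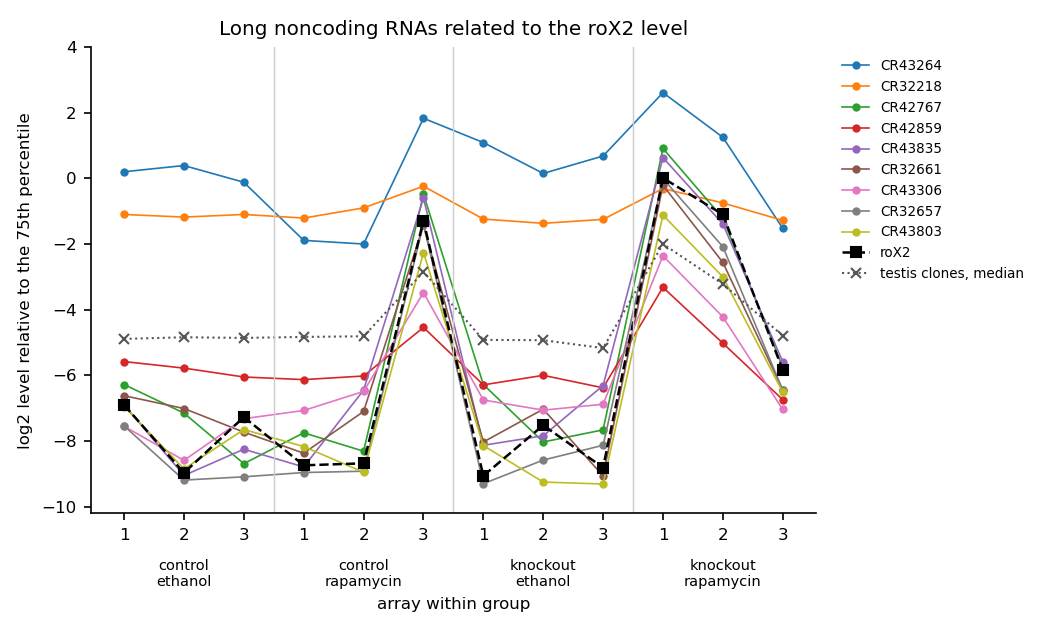
Levels (log2 signal relative to the array's 75th percentile) on the 12 arrays for the 9 long noncoding RNAs whose level followed roX2, with roX2 (black squares) and the median of 67 targets named by adult testis cDNA clones (crosses). Lines join arrays only to guide the eye. Control rapamycin array 3 and knockout rapamycin arrays 1 and 2 stand above the other 9 for each of the 9 genes.

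None of these 9 was called in the 5 group contrasts. CR32657, CR32661, CR42767, CR43803 and CR43835 had knockout rapamycin differences of 4.97 to 5.82 with standard errors of 1.75 to 2.14, and 2 of the 3 arrays of that group had raised roX2. These 5 genes had passed the background filter only through the knockout rapamycin group, where they are high, so the differences are a description and no fold or p is given. With the roX2 level as a covariate the differences became -0.09 for CR32657, -0.22 for CR32661, -0.67 for CR42767 and -0.25 for CR43835, and 0.45 for CR43803. The median level of 67 targets named by adult testis clones was -2.85, -2.0 and -3.22 on the raised arrays and between -5.17 and -4.79 on the others. Of the 67, 20 had a called positive slope, where 5.26% of all genes and targets had one, and their median slope was 0.08. Only clones that had passed the background filter were taken, which the knockout rapamycin group alone could allow. Their levels and slopes are therefore a description. roX1 had a slope of 0.64 ± 0.04 (adjusted p = 4.05e-05). The part of these RNAs in the results on the 9 genes was not tested.

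For the other 41 genes the slope lay between -0.19 and 0.21. Among them CR32658, which like CR32657 overlaps Ten-a, had a slope that missed the threshold (0.12 ± 0.04, adjusted p = 0.138). Of its 3 probes, 1 gave rapamycin differences of 1.63 in control and 3.88 in knockout larvae, where the others gave 0.14 and 0.31 in control and 0.55 and 0.68 in knockout larvae. CR33987 (0.20 ± 0.05, adjusted p = 0.0673) also missed the threshold. CR44191 had a slope of 0.21 ± 0.06 that was not called. It had passed the background filter only through the knockout rapamycin group, so its slope is a description. None of the 6 genes with a called difference of rapamycin effects had a called slope, where 5.4% of all genes and targets had one. A gene that follows roX2 spreads widely within groups, which makes a called difference less likely, so this is a description. With roX2 as a covariate those 6 of the 50 passed that test of the difference, where 11.8% of all genes and targets did. Of the 2742 called over all, 2021 kept their call in that fit.

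Another 52 long noncoding RNA genes with a probe did not pass the filter. Of these, 22 were well above background on no array, among them yar and marge. Another 12 reached 2 of the 3 arrays of some group, and 8 were well above background on all 3 arrays with raised roX2. CR32690 is an example, at -2.48, -1.10 and -3.13 on those arrays and at -9.23 to -7.57 on the others. Between 43 and 52 of the 102 genes were well above background on each of the 9 other arrays, against 65, 67 and 58 on control rapamycin array 3 and knockout rapamycin arrays 1 and 2. Among all spots on the arrays the share well above background was also highest on these 3, at 82.7%, 81.8% and 79.3%, against 72.5% to 77.0% on the 9 others. The bithorax complex RNAs bxd and iab8 and the RNA Yu stayed below the filter as well.

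No call was made in any contrast or slope for 16 of the 50 genes. Besides Hsromega, CR31044, CR42839, CR32658, CR33987 and CR44191 these were CR40469, CR34335, CR30055, CR43148, CR33963, CR43685, CR43927, CR33942, CR44024 and CR34044. Over the 16, rapamycin differences ran from -0.54 to 0.29 in control and from -0.37 to 0.79 in knockout larvae. CR40469 and CR34335 had standard errors near 0.11 and 0.09, with 0.11 and 0.09 in control larvae and -0.05 each in knockout larvae. CR44024 had the lowest control value (-0.54 ± 0.35) and CR33942 the lowest knockout value (-0.37 ± 0.34).

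Other noncoding RNAs on the arrays were counted in the same way. Of 35 tested antisense RNAs, 5 rose and 5 fell with rapamycin in control larvae, and 4 rose and 1 fell in knockout larvae. Over all genes and targets 21.3% rose and 21.8% fell in control larvae, and 6.35% and 8.92% in knockout larvae. The rapamycin effect was higher in the knockout for 5 of the 35 and lower for 0, where it was higher for 0 and lower for 6 of the 50 long noncoding RNAs. Over all it was higher for 6.63% and lower for 7.99%. The difference between these classes was not tested. The 10 whose probes had the highest mean signal are named, an order used only to choose them. Of these, asRNA:CR43767 fell by 1.65 in control (adjusted p = 5.2e-07) and by 0.69 in knockout larvae (adjusted p = 0.000766). asRNA:CR43465 (0.58 ± 0.21) and asRNA:CR43944 (0.60 ± 0.17) rose in control larvae, asRNA:CR44030 rose in knockout larvae (1.24 ± 0.26) and asRNA:CR31144 had a called roX2 slope of 0.28 ± 0.06. asRNA:CR44114, asRNA:CR42860, asRNA:CR43468, asRNA:CR43463 and asRNA:Eig63F-2 were not called for rapamycin. The snoRNA host genes Uhg2, Uhg3 and Uhg5 fell in both genotypes, by 0.77 to 1.83 in control larvae, as did 7SLRNA:CR32864 of the signal recognition particle and RNaseMRP:RNA of an RNA-processing enzyme. Of 5 spliceosomal RNAs, snRNA:U11 and snRNA:U1:21D rose in control larvae and snRNA:U12 fell in the knockout, and snRNA:U1:82Eb and snRNA:U2:34ABb were not called for rapamycin. Of 5 snoRNA and scaRNA genes 1 was called in control larvae, snoRNA:Psi28S-291 (-0.41 ± 0.14), and snoRNA:U3:9B, snoRNA:U3:54Aa, snoRNA:Psi28S-2566 and scaRNA:MeU5-C46 were not.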

How the data were processed

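Each array came as a deposited table of spot intensity, which per the submitters' processing notes was made with Agilent Feature Extraction 10.7. The processed signal of that table, already background-corrected per the file headers, was used. A value table holds a second intensity that the authors deposited. How they made it is not given in the sources used here. Its columns had medians of 144 to 157, and each followed the median spot signal of its own array best (r of at least 0.9976 on the log2 scale). It was an alternative.

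Control spots and outlier-marked spots were dropped, log2 signals were set relative to each array's 75th percentile, and spots of a probe were averaged. Of 32162 probes, 494 matched exactly 1 symbol in a RefSeq gene table of the Release 6 assembly, 3 matched several and 31665 none. The files use another assembly, so no coordinates are given. Testing a gene or target required that, in some group, all 3 arrays had every kept spot of its highest probe well above background.

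Contrasts were two-sided and fitted with limma 3.58.1 (R 4.3.3) in a model of 4 groups with 8 residual degrees of freedom. The fits were tested on simulated data. Every gene of the class is named. Genes called in any contrast, up to 12 by smallest adjusted p, are given on every array, and further per-array values were added after they had been seen. Members and lists were chosen with earlier results of these data known. The number of arrays limits the precision. Alternatives were other scalings and filters, the mean of all probes, blocks, array weights, another variance model, the roX2 level as a covariate, and leaving out arrays.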

Additional observations from a re-analysis of the deposited data

Results flagged for a closer look

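For 6 long noncoding RNAs the rapamycin effect differed between genotypes by a test of the difference itself (limma, adjusted over all 18757 genes or targets). The difference, knockout minus control on the log2 scale, was -1.54 for CR43301, -1.06 for CR42862, -0.88 for alphagamma-element:CR32865, -0.69 for CR43334, -0.60 for CR43241 and -0.51 for CR42549. In each the effect was the larger one in control larvae. Groups of 3 arrays are too small for a test of single outlying arrays.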

How the results depend on the processing

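Of 62 called values, 16 were called under every alternative run for them, and 2 changed direction under some. Counts below are of the 50 long noncoding RNA genes and percentages are of all genes and targets tested. In the order control rapamycin, knockout rapamycin, difference, genotype on ethanol, genotype on rapamycin and roX2 slope, 43.1%, 15.3%, 14.6%, 6.33%, 27.9% and 5.4% passed as reported. Median centring gave 9, 2, 1, 0, 10 and 28 genes and 21.6%, 8.51%, 2.31%, 0.768%, 11.4% and 53.2%. For knockout rapamycin and the slope, 4 and 17 genes passed with quantile normalisation, 4 and 19 with normexp, and 4 and 21 with the deposited values. The slope then gave 22.2%, 20.4% and 24.5% in that order, and genotype on ethanol gave 1.57%, 2.89% and 2.03%. Quantile normalisation called 3 genes for genotype on ethanol. With no filter 2.04% passed for that contrast and 8.05% for the slope. With a filter on all 12 arrays 3 genes and 2.92% passed for the slope.

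Under the slide block 1, 2, 0 and 5 genes passed for knockout rapamycin, difference, genotype on ethanol and genotype on rapamycin, and 24.9%, 1.4%, 3.3%, 0.0533% and 4.23% over the 5 contrasts. Within slide 1 control rapamycin had 4 genes and 14.8%, and within slide 3 knockout rapamycin had 0 genes and 0% by limma, where 2528 genes and targets had an unadjusted p under 0.05. Array weights gave 15 genes for knockout rapamycin, and 24.0%, 22.8% and 22.2% for knockout rapamycin, difference and genotype on ethanol. Without the 3 arrays with raised roX2, 3, 2 and 9 genes passed for knockout rapamycin, genotype on ethanol and genotype on rapamycin. The percentages were then 1.01% for knockout rapamycin, 5.2% for the difference, and 2.42% and 12.9% for the genotype contrasts. With roX2 as a covariate knockout rapamycin had 3 genes and 3.54%.

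The labels number the replicates alike in each group, but same-numbered arrays did not deviate together (18 pairs, r from -0.818 to 0.179, 2 over 0.1). With the replicate block 3 genes and 1.5% passed for genotype on ethanol, and 9.43% for knockout rapamycin.

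Leaving out single arrays gave 16 to 19, 5 to 15, 6 to 8, 0 to 7, 11 to 15 and 8 to 10 genes in the order above, and 35.0% to 44.2%, 7.03% to 18.4%, 9.89% to 15.8%, 0.57% to 13.9%, 20.7% to 29.5% and 2.97% to 6.13%. Genotype on ethanol moved most, to 13.9% without control ethanol array 1 and to 0.704% and 0.57% without arrays 2 and 3. It moved by over 1.5 times also without any control rapamycin array (3.78%, 3.49% and 3.71%), knockout ethanol array 2 (2.29%) or 3 (0.912%), or knockout rapamycin array 2 (3.83%). Knockout rapamycin did so without knockout ethanol array 1 (7.03%) or 3 (9.97%) or knockout rapamycin array 1 (9.89%) or 2 (8.22%), and the slope without knockout rapamycin array 3 (2.97%).

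Among the values compared, directions turned in the knockout rapamycin contrast alone. CR43943 became -0.10 with quantile normalisation, -0.07 with normexp and -0.12 with the deposited values, and mimi became -0.09 with median centring. With roX2 as a covariate CR32657 became -0.09, CR32661 -0.22, CR42767 -0.67, CR42859 -0.72, CR43306 -0.88 and CR43835 -0.25. Without the 3 arrays CR42859 became -0.52 and CR43306 -0.14. The cause was not tested. Normexp was run on the median spot signal. For probes not well above background a level is only a bound.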

Other observations

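Several probes read 14 of the 50 genes. For CR42646 the other probe gave 0.66 in control larvae against 0.27. The other probes of CR43835 and CR32661 were well above background on 4 arrays each, that of CR32194 on 2, and those of CR43126 and CR44024 on 0, so no differences are given for them. In knockout larvae the probes of CR43148 gave 0.22 and 0.46, those of CR43685 0.04 and 0.12, and those of CR42839 0.14 and 0.20.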
